A study of Saccharomyces cerevisiae with 8 samples.

Results

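The genes described here are TDH1, TDH2, TDH3, GPM1 and ADH1, which encode enzymes of glycolysis and alcoholic fermentation in budding yeast (Saccharomyces cerevisiae). They were taken as the genes of these symbols among spots that carry exactly 1 gene symbol in the platform annotation. That gave 5 genes on 6 spots, out of 3127 genes named in this way and 6216 spots in all. The genes were chosen by their measured ratios after 4NQO, so the ratios of that condition are given as a description, with no test, and the untreated arrays are the ones the choice did not use.

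In glycolysis glucose is split into triose phosphates, which are oxidised and converted to pyruvate with a net gain of ATP. Yeast growing on glucose sends most of the pyruvate on to ethanol, which restores the NAD+ that glycolysis uses up. TDH1, TDH2 and TDH3 (YJL052W, YJR009C and YGR192C) encode isoenzymes of glyceraldehyde-phosphate dehydrogenase, the step that produces NADH. Tdh3 is the main form during growth on glucose, and TDH1 is the form known for its expression in stationary and stressed cells. GPM1 (YKL152C) encodes phosphoglycerate mutase, which shifts the phosphate group of phosphoglycerate. ADH1 (YOL086C) encodes the main fermentative alcohol dehydrogenase, which reduces acetaldehyde to ethanol. Transcripts of these genes are among the most abundant in yeast growing on glucose.

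Wild-type cells of strain yPH500 were compared with sub1Δ cells, which lack the gene of a transcription coactivator related to human PC4. The labels give no other detail of the deletion strain. Both strains grew exponentially in rich medium (YPD), and cells were taken at time 0 and again following 1 h with 4NQO (4-nitroquinoline 1-oxide, a DNA-damaging chemical) at a labelled dose of 1 µg/µl. Each of the 8 arrays carried labelled total RNA from both strains in different dyes. Values are therefore log2 ratios, sub1Δ over wild type, unless a fold is named. Each condition had 2 independent experiments, and each experiment was hybridised again with the dyes exchanged, so n = 2 per condition. The design holds no array of treated against untreated cells and no untreated sample at 1 h, so 4NQO and the added hour cannot be told apart. Ratios were normalised within each array, so a change in a transcript's share of the RNA and a change in its amount per cell cannot be told apart.

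Of the arrays, 7 lacked a value for 266 to 1659 spots, and the dye-swapped array of 4NQO experiment 2 lacked one for 3234. After turning, array medians lay between -0.21 and 0.01 untreated and between -0.66 and -0.14 in treated cells. Dye-swap partners correlated across spots at r = 0.21 in untreated experiment 1, 0.26 in 4NQO experiment 1 and 0.33 in 4NQO experiment 2. In untreated experiment 2 they did not (Pearson r = -0.19, Spearman rho = 0.05). SUB1 had no spot with a single symbol, so the direction of all ratios rests on the dye labels. Of 13 genes that could tell the strains apart (SUB1, mating-type and auxotrophic marker genes), 6 were tested in each condition. The one that passed was MF(ALPHA)2, a pheromone gene, at 2.49 ± 0.75 with 4NQO (limma adjusted p = 0.0107). Of all features, 19.5% were called with 4NQO. Untreated, MF(ALPHA)2 was at 0.27 ± 0.34. The other alpha-pheromone gene, MF(ALPHA)1, did not pass with 4NQO, at 0.72 ± 1.06 (limma adjusted p = 0.38). With 4NQO 2 of the 6 tested genes were above 0.

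Before treatment the 5 genes lay near equality between the strains, apart from TDH1 in 1 experiment. The 20 values of 5 genes on 4 arrays ran from -0.43 to 1.94 with a median of 0.09. After 4NQO the same genes were higher in sub1Δ on nearly every array: 19 of 20 values were above 0, from -0.26 to 5.93 with a median of 1.57. The 5 largest values all came from 1 array, the dye-swapped one of experiment 1 (called the high array from here), and without it 14 of 15 values were above 0, with a median of 1.02 and a maximum of 1.96. On the dye-swapped arrays this direction rests on taking the deposited values as Cy3 over Cy5. No source used here says whether those arrays had been turned before deposit. The unswapped 4NQO arrays are read the same either way. On them the genes ran from 0.48 to 1.86 in experiment 1 and from 0.08 to 1.51 in experiment 2. With the dye-swapped arrays taken as already turned, the mean 4NQO ratio was below 0 for all 5 genes, with a median of -1.003.

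**Figure D1:**
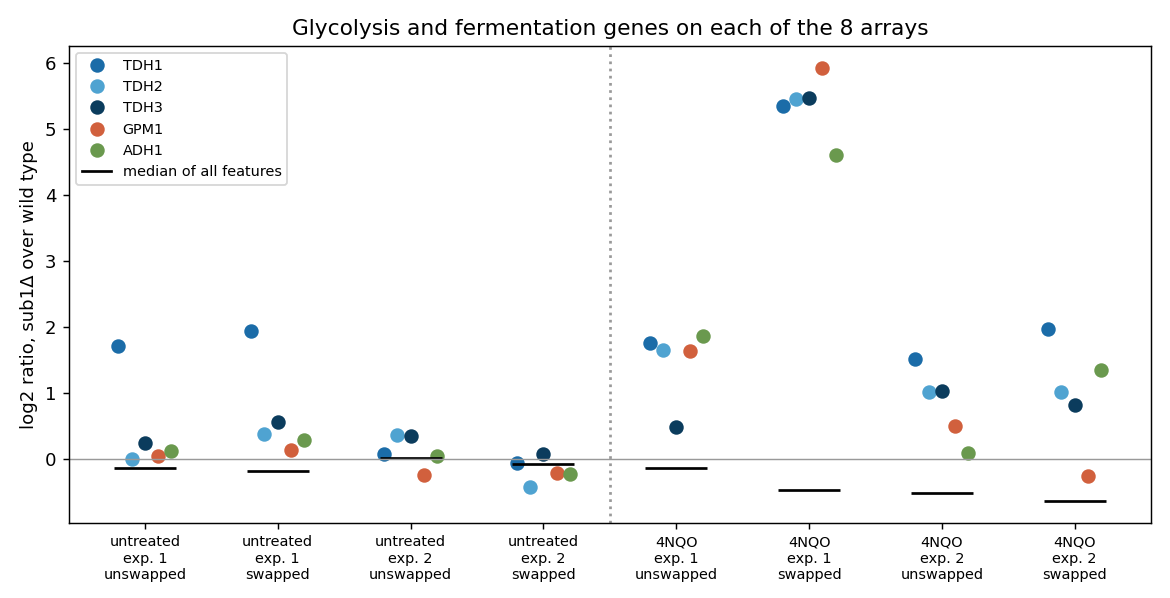
Log2 ratio of sub1Δ to wild type for TDH1, TDH2, TDH3, GPM1 and ADH1 (coloured points) on each of the 8 arrays, with the median of all features on that array as a black bar. The high array (4NQO experiment 1, dye-swapped) stands apart at 4.61 to 5.93, and the other 4NQO arrays lie between -0.26 and 1.96.

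TDH1 was the gene with the highest ratio in untreated cells. It was at 1.70 and 1.94 on the arrays of untreated experiment 1 and at 0.06 and -0.06 on those of experiment 2. Both dye orientations of the first experiment were thus high and both of the second near 0, which left a mean of 0.91 ± 1.29 (SD, n = 2 experiments). After 4NQO TDH1 was at 1.75 and 5.35 in experiment 1 and at 1.51 and 1.96 in experiment 2. The 4NQO arrays overlapped with the untreated ones, since untreated experiment 1 reached 1.94. The mean of the 4NQO experiments was 2.64 ± 1.28, or 6.25-fold, and 1.75 without the dye-swapped array of experiment 1.

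TDH2 was at -0.01 and 0.37 in untreated experiment 1 and at 0.36 and -0.43 in experiment 2. With 4NQO it was at 1.65 and 5.45 in experiment 1 and at 1.02 and 1.01 in experiment 2. All 4 of these 4NQO arrays were above all 4 untreated arrays, which held for 1 of the 5 genes and for 6.71% of the 1654 features measured on all 8 arrays. Its mean was 0.07 ± 0.16 untreated and 2.28 ± 1.79 with 4NQO, or 4.87-fold, and 1.33 without the high array.

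TDH3, the gene of the main isoenzyme, was at 0.24 and 0.55 in untreated experiment 1 and at 0.34 and 0.06 in experiment 2. It was the only 1 of the 5 genes above 0 on all 4 untreated arrays, as were 10.3% of the 3457 features measured on them. With 4NQO it was at 0.48 and 5.47 in experiment 1 and at 1.02 and 0.81 in experiment 2. The lowest of these fell within the untreated range and the other 3 above it. The means were 0.30 ± 0.14 untreated and 1.95 ± 1.46 with 4NQO, or 3.86-fold, and 0.70 (1.62-fold) without the high array.

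The coding regions of the 3 TDH genes have the same length, 999 bases in the RefSeq gene table of assembly R64, and are known to be nearly identical in sequence, TDH2 and TDH3 more so than TDH1. A spot of a full-length coding region can therefore bind transcripts of all of them, and the 3 spots are not independent readings of separate genes. The values still separated them in part. TDH1 exceeded TDH2 by 1.72 and 1.57 and TDH3 by 1.46 and 1.39 on the arrays of untreated experiment 1, the same in both dye orientations. TDH2 and TDH3 differed by at most 0.50 on 7 arrays and by 1.16 on the unswapped array of 4NQO experiment 1. On the high array the 3 spots lay within 0.12 of each other, the narrowest range on the 8 arrays.

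**Figure D2:**
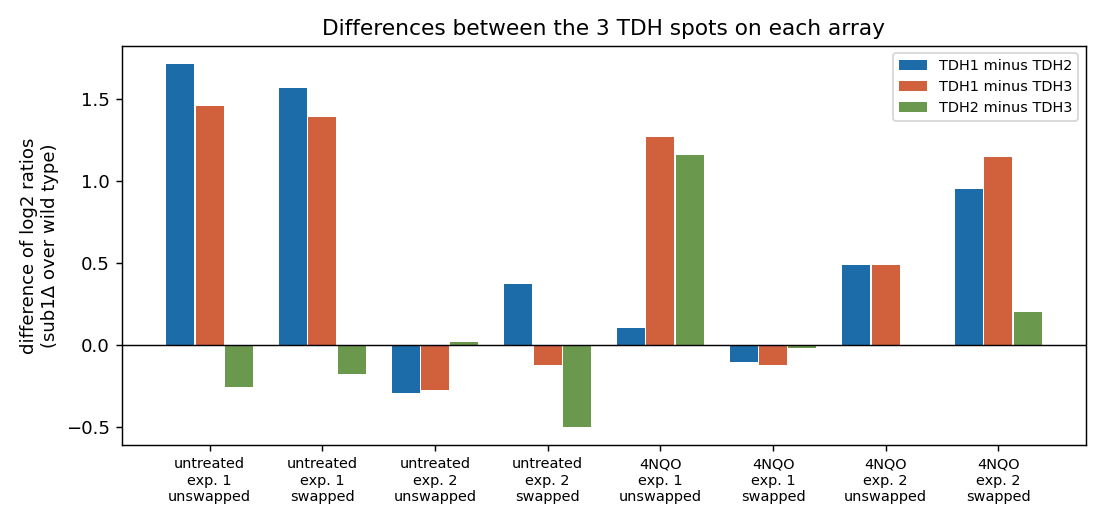
Differences between the log2 ratios (sub1Δ over wild type) of the 3 TDH spots on each array, as bars from 0. TDH1 exceeds both others by 1.39 to 1.72 in untreated experiment 1, and the 3 spots lie within 0.12 of each other on the high array (4NQO experiment 1, dye-swapped).

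GPM1 had 2 spots, in different blocks of the array. In untreated cells the spot 26.6.7 gave 0.47 and 0.36 in experiment 1 and -0.12 and -0.19 in experiment 2, and the spot 28.5.7 gave -0.40 and -0.09, then -0.37 and -0.24. The spots thus disagreed in sign in experiment 1, and their averaged values stayed within 0.24 of 0. With 4NQO the spot 26.6.7 gave 2.25 in experiment 1, where it had no value on the dye-swapped array, and 0.81 and -0.66 in experiment 2. The spot 28.5.7 gave 1.02 and 5.93 in experiment 1 and 0.18 and 0.14 in experiment 2, so the value of the gene on the high array rests on 1 spot. Averaged over spots, GPM1 was at -0.07 ± 0.22 untreated and 1.95 ± 2.59 with 4NQO, or 3.87-fold. Its 4NQO experiments lay at 3.78 and 0.12, the widest gap among the 5 genes, and without the high array the mean was 0.88.

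In untreated cells ADH1 was at 0.12 and 0.28 in experiment 1 and at 0.04 and -0.23 in experiment 2. With 4NQO it was at 1.86 and 4.61 in experiment 1 and at 0.08 and 1.35 in experiment 2. The value of 0.08 fell within the untreated range, and the other 3 arrays lay above it. The means were 0.05 ± 0.21 untreated and 1.97 ± 1.79 with 4NQO, or 3.93-fold, and 1.29 without the high array.

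The first comparison asked whether these transcripts differed between the strains before treatment. None of the 5 passed limma's moderated test on the dye-swap means, where 0.0289% of 3457 features were called. Adjusted p-values were 0.94 for TDH1, 0.97 for TDH3 and 0.99 for TDH2, GPM1 and ADH1 (Benjamini-Hochberg over all features), and the unadjusted p of TDH1 was 0.16, while 198 features had an unadjusted p under 0.05. The 95% confidence interval of the TDH1 ratio ran from -0.40 to 2.23, and those of the other 4 genes from -1.53 at the lowest to 1.56 at the highest. With untreated cells fitted alone, adjusted p-values stayed between 0.71 and 0.99.

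The second comparison concerned the strain ratio after 4NQO. In order of the mean ratio the genes were TDH1, TDH2, ADH1, GPM1 and TDH3, but they spanned 1.95 to 2.64 with SDs of 1.28 to 2.59, so no neighbours in that order differed beyond their spread. Experiment 1 gave the higher value for all 5 genes, at 2.98 to 3.78 against 0.12 to 1.74 in experiment 2. The choice of the genes used this contrast, so no call is given for them. Over all features, 19.5% of 2194 were called by limma, 199 higher (9.07%) and 229 lower. Leaving out a single array left no feature called in 6 of 8 cases, the exceptions being the unswapped array of 4NQO experiment 1 and the dye-swapped array of untreated experiment 1. The median ratio of the 5 genes was 1.29 without the high array and 3.19 without its dye-swap partner. Leaving out an untreated array cannot alter it, since it is computed from 4NQO arrays only. With array medians centred the calls were 195 higher and 17 lower, with spot blocks centred 284 and 124, and with arrays scaled to a common spread 129 and 28. The median of all tested features was -0.56 with 4NQO, against 1.97 for the 5 genes, which became 2.43 after centring of array medians. Values above 0 on all 4 arrays were found for 4 of the 5 genes, all but GPM1, and for 13.2% of features.

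The strain ratio with 4NQO exceeded the untreated ratio by 1.73 for TDH1, 2.21 for TDH2, 1.65 for TDH3, 2.03 for GPM1 and 1.92 for ADH1. Both 4NQO experiments lay above both untreated experiments for 4 of the 5 genes, all but TDH1, and for 19.5% of the features with all 4 dye-swap means. None of the 1654 features tested passed for this difference with limma (0% called), and 226 had an unadjusted p under 0.05.

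A dye swap lets a difference that belongs to the dye be told from one that belongs to the strain: the 2 arrays of a pair agree for the second and disagree for the first. In 4NQO experiment 1 the dye-swapped array exceeded its partner for all 5 genes, by 3.60 for TDH1, 3.81 for TDH2, 4.99 for TDH3, 4.30 for GPM1 and 2.75 for ADH1. These gaps lay at the 95.7th to 99.7th percentile of all features in that pair, and 47.2% of features were higher on the dye-swapped array. The GPM1 gap sets 1 spot on the dye-swapped array against the mean of 2 spots on its partner. The spot measured on both, 28.5.7, was at 5.93 and 1.02. The genes were chosen by 4NQO ratios that include the high array. A large gap in that pair was therefore favoured by the choice, and the percentiles are a description. The pair of experiment 2 gave gaps of 0.46 for TDH1, 0.00 for TDH2, -0.21 for TDH3, -0.76 for GPM1 and 1.27 for ADH1. The gap of experiment 1 was thus not found again in experiment 2, and its cause was not tested.

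**Figure D3:**
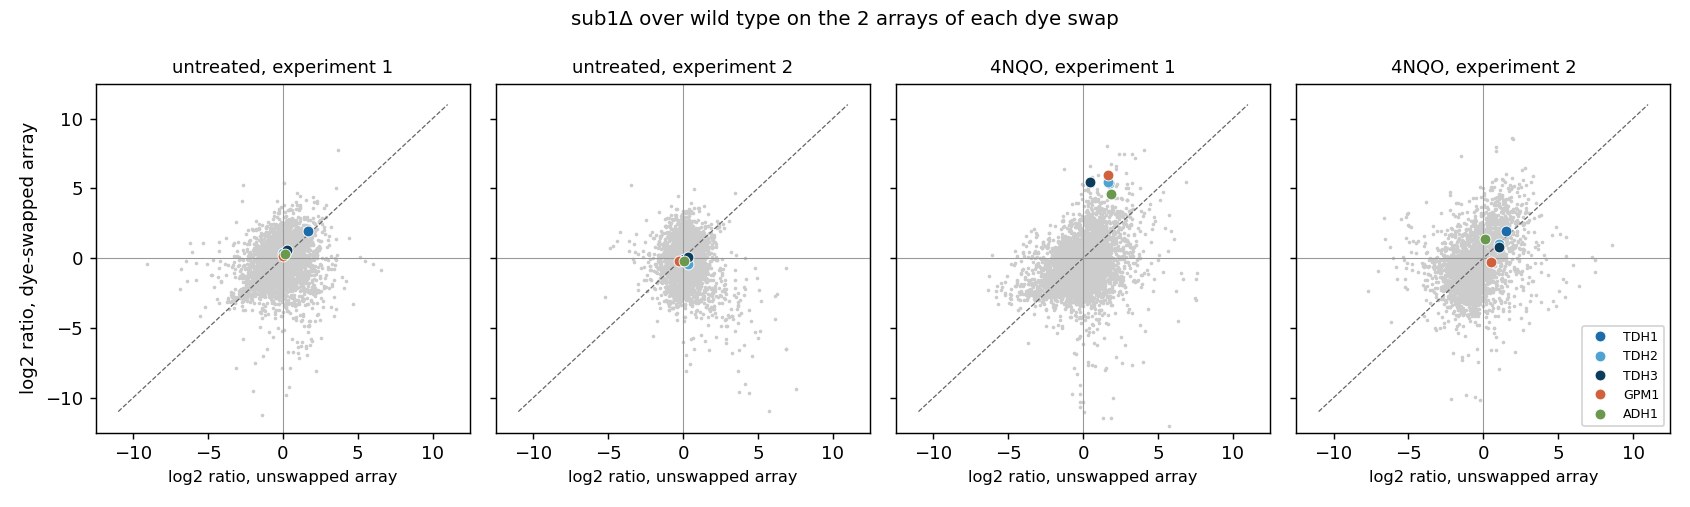
Log2 ratios (sub1Δ over wild type) on the unswapped array (horizontal) and the dye-swapped array (vertical) of each experiment, for all features (grey) and the 5 genes (coloured), with equality as a dashed line. In 4NQO experiment 1 the 5 genes lie 2.75 to 4.99 above the line, and in the untreated experiments they lie at most 0.79 from it.

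In untreated cells the gaps between dye orientations ran from -0.79 to 0.39 in the 10 pairs of 5 genes and 2 experiments. No gene passed limma's test of the mean gap (adjusted p between 0.985 and 0.998, with 0.0289% of 3457 features called). On single arrays the 5 genes lay at the 99.0th to 99.7th percentile of the high array, at the 59.0th to 91.1st of the other 4NQO arrays, and at the 33.9th to 73.4th of the untreated arrays except TDH1 in experiment 1, at the 94.4th and 95.5th. The percentiles on 4NQO arrays are likewise a description, since the choice used those arrays.

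Other genes of sugar breakdown were counted from a list of 61 genes that includes the 5. A single-symbol spot existed for 34, and no glucose transporter gene was among them. PGK1, ENO2 and PDC1, of highly expressed steps, are not analysed here. In untreated cells 17 genes besides the 5 were tested, 13 of them above 0, and none passed. Their median was 0.55, against 0.02 over all features. They ran from -0.52 for GPD1, of glycerol synthesis, to 1.19 ± 1.39 for PFK1, a subunit of phosphofructokinase (limma adjusted p = 0.917).

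With 4NQO, 12 genes besides the 5 were tested, of which 2 were called higher, none lower and 10 did not pass, beside 19.5% of all features called in either direction and 9.07% called higher. Their median was 0.57, against -0.56 over all features. CDC19, the main pyruvate kinase gene and the last step of glycolysis, was called at 1.73 ± 0.13 (limma adjusted p = 0.0413), against 0.83 ± 0.73 untreated, a difference that did not pass (adjusted p = 0.624). Its arrays lay at 1.41 and 2.24 in experiment 1 and at -0.47 and 3.74 in experiment 2, so the small SD hides dye-swap partners that disagreed in sign. ADH3, the mitochondrial alcohol dehydrogenase gene, was called at 1.91 ± 0.69 (adjusted p = 0.0293), with arrays at 2.71, 0.13, 2.25 and 2.53. Both calls were lost with 4NQO cells fitted alone (limma adjusted p = 0.11 for CDC19 and 0.089 for ADH3), and CDC19 kept its direction without passing under 17 alternatives and ADH3 under 16.

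The other glycolysis genes did not pass. HXK2, the main hexokinase gene on glucose, was at 2.10 ± 3.55 (limma adjusted p = 0.0799), with experiments at -0.41 and 4.61. ENO1, an enolase gene, was at 1.46 ± 0.47 (adjusted p = 0.0719), TPI1, of triose phosphate isomerase, at 1.07 ± 0.10 and PFK1 at -0.41 ± 1.76. GPM2, a paralog of GPM1, was at 0.10 ± 1.25, and 1 gluconeogenesis gene, FBP1, at -0.71 ± 0.90. Other alcohol dehydrogenase genes tested were ADH4, at 0.11 ± 1.58, and ADH5, at 0.45 ± 0.93, and GPD1 was at 0.16 ± 2.02. Neither ADH4, ADH5 nor GPD1 passed (limma adjusted p = 0.908, 0.573 and 0.873). Of the regulators, RAP1, whose product binds promoters of glycolytic and ribosomal protein genes, was the 1 gene tested, at 0.69 ± 0.82 and 0.83 ± 0.99 untreated.

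**Figure D4:**
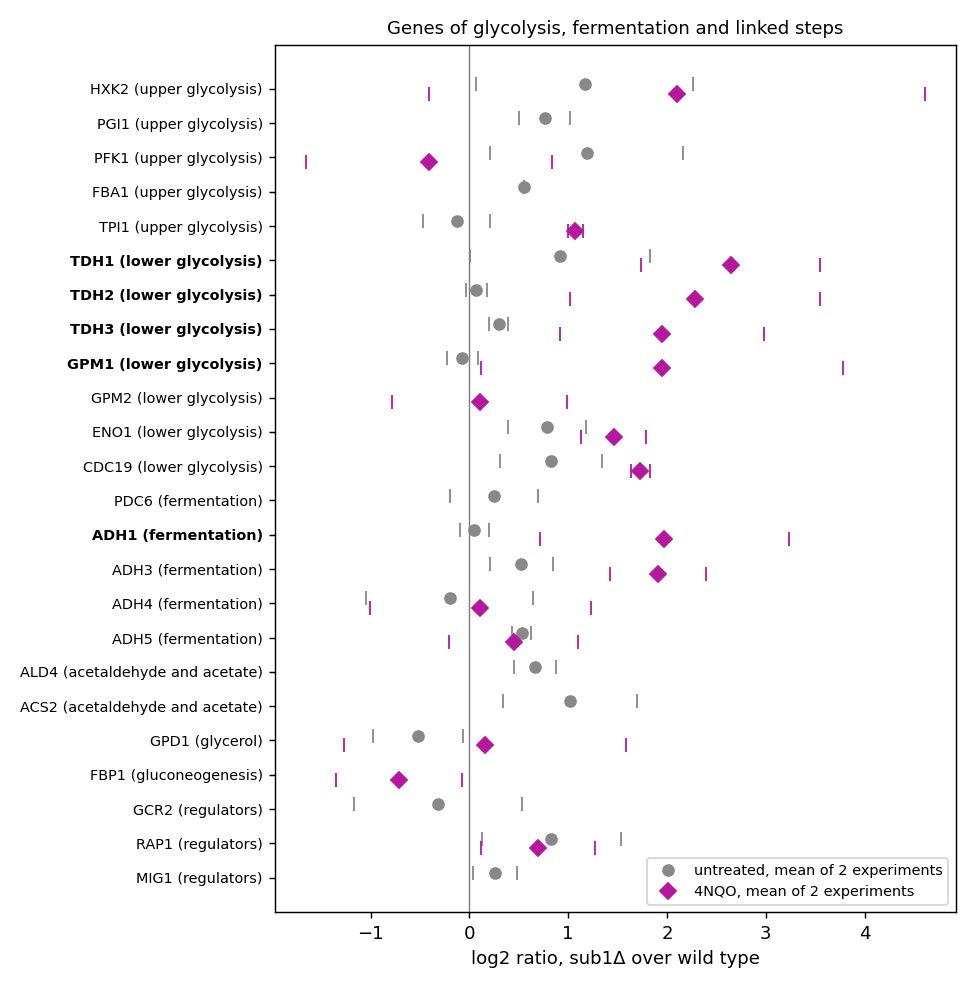
Mean log2 ratio (sub1Δ over wild type) of each tested gene of glycolysis, fermentation and linked steps in untreated (grey circles) and 4NQO-treated cells (purple diamonds), with the 2 experiments as vertical ticks. The 5 genes described (bold) have 4NQO means of 1.95 to 2.64, and the untreated means of all genes drawn lie between -0.52 and 1.19.

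Gaps between dye orientations were also taken for the other genes of glycolysis. In 4NQO experiment 1, 6 of 8 measured on both arrays were higher on the dye-swapped array, with a median gap of 1.76, as were 47.2% of all features. Among those higher, ENO1 was at -0.35 on one array and 3.94 on the other, TPI1 at -0.72 and 2.72, and FBA1, the aldolase gene, at 0.17 and 2.87. PFK1 went the other way. Its 4NQO mean was -1.655 without the unswapped array of this experiment and 0.84 without the dye-swapped one. In 4NQO experiment 2, 6 of 7 were higher on the dye-swapped array, with a median gap of 1.65 (54.0% of all features). In untreated cells 6 of 8 were higher in experiment 1, with a median gap of 0.49 (51.8% of all features), and 3 of 9 in experiment 2, with a median gap of -0.24 (49.2%).

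The 5 genes with the pattern most like the mean of the members over the 8 arrays each encode a ribosomal protein. They were RPS25B (Pearson r = 0.98), RPS22A (0.98), RPL16B (0.97), RPL28 (0.96) and RPL10 (0.96), the 5 highest of 942 named genes measured on all arrays, whose median r was -0.05. Ribosomal protein symbols made up 34 of the 942 candidates and 9 of the 20 with the highest r. The 8 points share RNA in pairs, and r is given as a description. All of them had their highest value on the same array as the 5 genes, from 4.64 for RPL16B to 8.07 for RPL28, and none went above 0.83 in untreated cells. Without that array r was 0.94, 0.88, 0.92, 0.77 and 0.92. Over the other arrays 1070 named genes could be ranked, since genes with no value on the high array came in. Of the 5, only RPS25B was among the 5 highest there, behind RPN8, RPL31A, RPL11B and CAF20 (0.95 to 0.99). The rankings are thus not over the same genes.

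**Figure D5:**
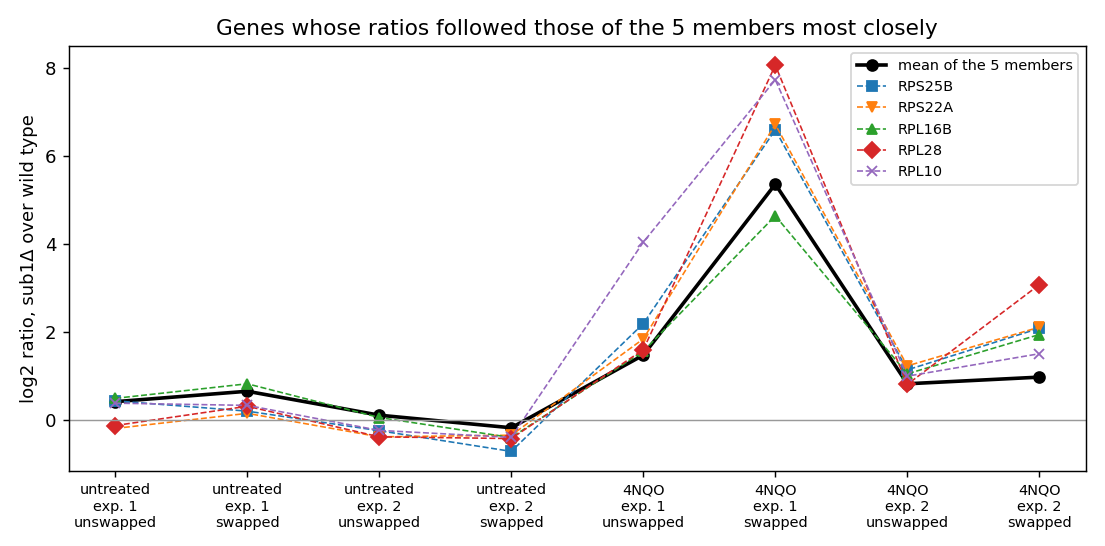
Log2 ratio (sub1Δ over wild type) on each array for the mean of the 5 genes (black) and the 5 genes most correlated with it (dashed). All 6 lines peak on the high array (4NQO experiment 1, dye-swapped), the mean of the 5 genes at 5.36 and the ribosomal protein genes between 4.64 and 8.07.

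Genes next to the 5 on their chromosomes were mostly not tested. Of the 10 direct neighbours, 2 were tested with 4NQO: HIP1, a histidine permease gene beside TDH3, at -1.11 ± 0.26 and NNR2, a gene of NADHX repair beside GPM1, at 1.05 ± 0.83, and neither passed (limma adjusted p = 0.164 and 0.193).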

How the data were processed

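The authors deposited log2 ratios of Cy3 over Cy5 per spot. Per the series' design text, arrays of amplified open reading frames were scanned with a GenePix instrument, background was subtracted and LOWESS normalisation applied; the submitters' processing notes name limma 2.12.0. No source used here says whether dye-swapped arrays were already turned. Arrays with sub1Δ in Cy5 were multiplied by -1. Neither intensities nor background levels were used, and the number of arrays limits the precision.

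Of 6216 spots, 3344 had 1 symbol, 387 several and 2485 none. Of those with 1 symbol, 3343 were matched to the RefSeq gene table (assembly R64) and took its symbol. Spots of a gene were averaged, giving 5999 features. Both arrays of a dye swap were averaged where both had a value. limma 3.58.1 (R 4.3.3) was fitted to the 4 dye-swap means with 1 coefficient per condition and a shared, moderated spread (prior degrees of freedom 16.8). The median SD between experiments was 0.51 untreated and 0.66 with 4NQO, so the shared spread is wide for untreated and narrow for treated cells. Tests were 2-sided, adjusted by Benjamini-Hochberg at a threshold of 0.05. The fit was also run on simulated arrays with known changes. Those arrays were drawn independently, without the RNA that dye-swap partners share. The share of false calls was checked against a limit only where all arrays had a common spread. The simulation thus cannot tell how the tests behave on these data. The design text calls the experiments independent without naming cultures. The p-values rest on a spread between experiments that both conditions share and that is moderated over all features. They do not measure the spread between a gene's own 2 experiments in 1 condition.

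Genes named were the 5 members, the tested genes of a list of glycolysis, fermentation, acetate, glycerol, gluconeogenesis and regulator genes, strain markers, and the 5 genes of highest correlation with the members' mean. Members and lists were chosen with earlier results of these data known. Direct neighbours and genes of highest correlation over 7 arrays were added after values were seen. Alternatives covered centring, scale, spread, missing values, direction, replication and spots.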

Additional observations from a re-analysis of the deposited data

Results flagged for a closer look

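Among 39 sets of 4 arrays (1 gene in 1 condition, for the glycolysis and fermentation list), 5 held 1 array far from the other 3 by Dixon's criterion, which chance meets in about 1 of 20 sets of independent values. The 4 arrays are 2 dye-swap pairs that share RNA, and the TDH genes were chosen by their 4NQO ratios, so the count is not set against that rate. In 4NQO experiment 1 with dyes exchanged, TDH1 was at 5.35 (other arrays 1.51 to 1.96), TDH2 at 5.45 (1.01 to 1.65) and TDH3 at 5.47 (0.48 to 1.02). These 3 spots can bind the same transcripts and are not independent cases. On the dye-swapped array of untreated experiment 2, TPI1 was at -1.30, with the other arrays at 0.21 to 0.36. On the dye-swapped array of untreated experiment 1, PDC6, a minor pyruvate decarboxylase gene, was at 1.90, with the other arrays at -0.52 to -0.18.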

How the results depend on the processing

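No member passed in untreated cells under any alternative run. The median of the 5 genes with 4NQO, a description since they were chosen by these ratios, stayed above 0 under all but 1. Many alternatives left the genes' own 4NQO values in place, and there the median could not move from 1.975. With dye-swapped arrays taken as already turned, that median became -1.003 (TDH1 -1.01, TDH2 -0.95, TDH3 -1.20, GPM1 -0.88, ADH1 -1.003), the differences from untreated cells -0.98, -1.05, -1.19, -0.85 and -1.03, untreated TDH1 -0.029 and TDH3 -0.007, and 4NQO ratios of CDC19 -1.26, TPI1 -0.93, ENO1 -1.51, HXK2 -0.69 and PFK1 0.84. The median with 4NQO was 0.92 without 4NQO replicate 1 and 3.55 without replicate 2, and 1.29 to 3.19 when single arrays were left out. Untreated, it was 0.37 with spot blocks centred, -0.038 to 0.199 without an experiment and -0.015 to 0.27 without an array. Untreated values near 0 changed sign in GPM1 (0.03 with array medians centred, 0.083 with blocks centred, 0.13 from the spot 26.6.7, and -0.229 to 0.083 without an experiment), TDH2 (-0.038 to 0.181 without an experiment, -0.13 to 0.27 without an array), ADH1 (-0.004 with blocks centred, -0.097 to 0.199 without an experiment, -0.015 to 0.118 without an array) and GPD1 (0.28 from 1 of its spots).

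With 4NQO, PFK1 was at 0.048, 0.12 and 0.13 with medians centred, blocks centred and arrays scaled, at -1.65 to 0.83 without an experiment and at -1.66 to 0.84 without an array, and HXK2 at -0.41 to 4.61 without an experiment. The features called in untreated cells numbered 0 with array medians centred, 3 with blocks centred, 25 with arrays scaled, 42 with the condition fitted alone, 8 with each spot by itself, and 0 with features on all 8 arrays, with 1 array of a swap standing alone, with 4 arrays as replicates and with a replicate block, 0 to 42 without an experiment and 0 to 5 without an array. With 4NQO, against 428, they numbered 212 (medians centred), 157 (scaled), 94 (fitted alone), 239 (4 arrays as replicates) and 0 with features on all 8 arrays, 1 array standing alone, swaps already turned or a replicate block, 94 to 338 without an experiment and 0 to 432 without an array. For the difference they numbered 2 with blocks centred and 0 to 53 without an experiment. For dye orientation they numbered 2 with medians or blocks centred and 5 with arrays scaled, alternatives chosen after seeing the data. By distance instead of correlation, 2 of the 5 most similar genes were shared. The experiment numbers of the conditions share only a number, and under the replicate block, limited to 1654 features on all 8 arrays, no call was made in either condition (limma; 83 untreated and 530 with 4NQO at an unadjusted p under 0.05). Causes of these changes were not tested.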
